A study of Mus musculus with 2 samples.

Results

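The miR-7 family of the mouse was taken here as 3 miRNA genes, Mir7b, Mir7-1 and Mir7-2. They were picked by name from the 1973 miRNA genes of the deposited count tables. Another gene of the tables, Mir7j, was not taken as a member. The expression of the 3 genes was measured by small RNA sequencing in the forebrain of untreated B6NCrl embryos at embryonic day 14.5. The labels give 1 group of 2 biological replicates, each a single forebrain, and no other genotype, age or treatment. The labels also give pooled sexes, a shared donor identifier and a different collection day for each replicate. By the collection days the replicates do not come from the same embryo. The pooled sexes and the shared donor identifier do not settle whether each replicate is a single embryo. Part of the spread between the replicates may be technical. A whole forebrain holds many cell types, and fewer cells of a type and less RNA per cell cannot be told apart in it.

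A miRNA is cut from a hairpin precursor, and bases 2 to 8 of the mature strand, the seed, pair with target mRNAs that are then repressed. miR-7 is an ancient miRNA known from neurons and from hormone-secreting cells of the pancreas and pituitary, and it represses the mRNA of alpha-synuclein and, in progenitors of the mouse forebrain, that of Pax6. In mouse brain it is bound at many sites by the circular RNA Cdr1as, and the long non-coding RNA Cyrano triggers its breakdown.

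The mature sequences show what the 3 genes share, and are given here from RefSeq (GRCm38.p6, the assembly also called mm10) with the seed in capitals. All 3 genes matched by symbol.
miR-7b-5p (from Mir7b): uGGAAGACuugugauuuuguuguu
miR-7a-5p (from both Mir7-1 and Mir7-2): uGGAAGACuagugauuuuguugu
miR-7b-3p (from Mir7b): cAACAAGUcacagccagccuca
miR-7a-1-3p (from Mir7-1): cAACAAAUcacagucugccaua
miR-7a-2-3p (from Mir7-2): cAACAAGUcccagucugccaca

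The 5p arms, which give the strand known as miR-7, all carried the seed GGAAGAC, and no other gene in the RefSeq table of mouse miRNAs had a mature form with it. Counted from 1 at the 5′ end, miR-7b-5p differed from miR-7a-5p by 1 substitution, A10U, and by 1 extra base at its 3′ end. The substitution lies outside the seed. The 3p arms were less alike. miR-7a-2-3p differed from miR-7a-1-3p at 3 of 22 bases (A7G, A10C and U21C), and miR-7b-3p differed from miR-7a-1-3p at 5 of 22 (A7G, U14C, U16A, A20U and U21C). The A7G substitution gave the 3p arms of Mir7b and Mir7-2 the seed AACAAGU, while that of Mir7-1 had AACAAAU.

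The hairpins are printed because the reads were counted over them, with the 5p arm and then the 3p arm in capitals. They are RefSeq sequences identical to the hairpins of GENCODE M21.
Mir7b: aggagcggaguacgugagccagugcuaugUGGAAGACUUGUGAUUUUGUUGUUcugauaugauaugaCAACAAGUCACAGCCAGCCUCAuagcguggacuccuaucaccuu
Mir7-1: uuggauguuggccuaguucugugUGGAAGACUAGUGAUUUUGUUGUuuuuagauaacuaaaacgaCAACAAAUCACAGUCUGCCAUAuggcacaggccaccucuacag
Mir7-2: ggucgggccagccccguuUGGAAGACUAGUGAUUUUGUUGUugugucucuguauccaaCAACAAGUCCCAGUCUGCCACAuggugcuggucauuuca

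On mm10, Mir7b (ENSMUSG00000065491.1) lies at chr17:56242988-56243098 on the plus strand and is 111 nt long. It is intergenic in GENCODE M21, 183 bp past the end of the lincRNA AC026385.1 on the same strand. Mir7-1 (ENSMUSG00000065434.1) lies at chr13:58392779-58392886 on the minus strand and is 108 nt long. It sits inside Hnrnpk, the gene of an abundant RNA-binding protein, on the same strand, in an intron of 12 of the 34 annotated Hnrnpk transcripts and in an exon of none. Mir7-2 (ENSMUSG00000065609.1) lies at chr7:78888277-78888373 on the plus strand and is 97 nt long. It is intergenic, 7481 bp before Aen. No other annotated miRNA gene overlapped a miR-7 hairpin or lay within 10 kb of one.

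The whole hairpins, arms included, were less alike than the mature arms. Likeness outside the arms was not computed. Over a global alignment, 66.9% of the columns were identical between Mir7b and Mir7-1, 64.3% between Mir7b and Mir7-2, and 68.8% between Mir7-1 and Mir7-2. The predicted minimum free energy of folding was -35.0 kcal/mol for Mir7b, -46.8 kcal/mol for Mir7-1 and -40.5 kcal/mol for Mir7-2. Mir7b, with the most counts, had the least stable predicted hairpin of the 3. These energies are predictions for the annotated hairpin alone.

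One stretch bears on what the gene counts can hold. Mir7-1 and Mir7-2 have 24 nt in common without a difference, the whole of miR-7a-5p and the next base:
shared stretch: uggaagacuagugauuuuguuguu

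Gene counts were made of uniquely mapped reads, while those that fit several places went into a total of multi-mapping reads. Among the annotated hairpins, a read that starts at the first base of miR-7a-5p was unique to 1 locus only from a length of 25 nt on, which is longer than the mature form of 23 nt. The same read from miR-7b-5p was unique from 11 nt on, and reads from the 3p arms were unique from 10 nt, the shortest length searched (Mir7b and Mir7-1), or from 11 nt (Mir7-2) on. Of the windows of 20 nt, 5 of 89 in Mir7-1 and 5 of 78 in Mir7-2 occurred in another hairpin, always the other miR-7a locus, and 0 of 92 in Mir7b did. Of 1674 distinct mature sequences in RefSeq, 54 (3.23%) lie at 2 or more places, and miR-7a-5p is one of them. The gene counts of Mir7-1 and Mir7-2 therefore leave out perfect miR-7a-5p reads of up to 24 nt, and the level of miR-7a-5p cannot be read from them. The genome outside annotated transcripts was not searched, and the mismatches that the aligner allowed are not given in those sources that were used here.

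**Figure D1:**
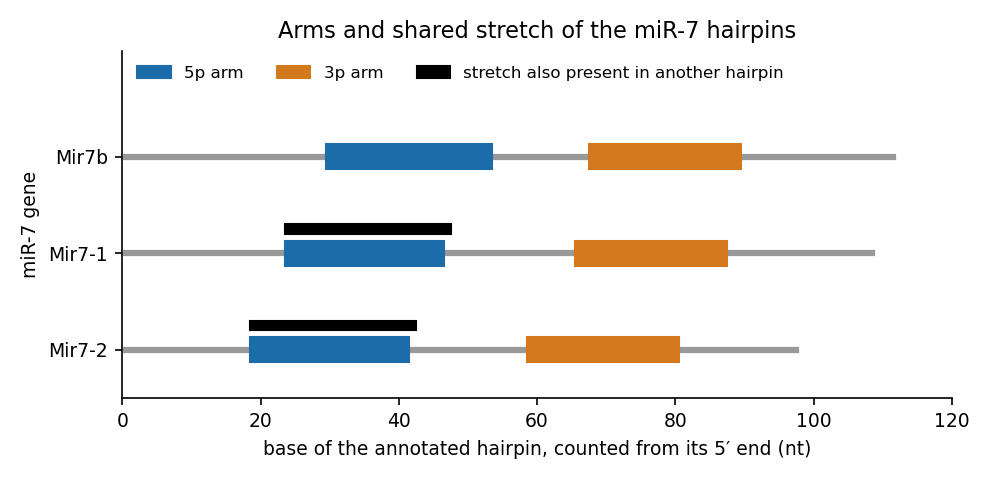
Annotated hairpins of the 3 miR-7 genes in bases from the 5′ end, with the 5p arm in blue, the 3p arm in orange and, as a black bar, the stretch that also occurs in another annotated miRNA hairpin (windows of 20 nt). The black bar covers the 5p arm of Mir7-1 and Mir7-2, and Mir7b has none.

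The libraries held 18598385 reads in replicate 1 and 20638071 in replicate 2, of which 7080317 and 7946585 were counted on the strand of a miRNA gene. Multi-mapping reads made up 42.7% ± 0.822 of all reads (SD, n = 2). They were not copies of each other: over 445 genes the counts gave a chi-square of 91022 with 444 degrees of freedom. All levels below are CPM, counts per 1000000 miRNA gene counts of the library.

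All 3 miR-7 genes were expressed in both forebrains, and they differed widely in uniquely assigned reads. Mir7b, the single source of miR-7b, had 15848 counts in replicate 1 and 15908 in replicate 2. That is 2238 CPM (95% Wilson interval 2204 to 2273) in replicate 1 and 2002 CPM (1971 to 2033) in replicate 2, or 2120 ± 167 CPM (SD, n = 2). Mir7b ranked 63 among the 1973 genes. Multi-mapping reads are in no gene count and in no library size, so ranks and CPM hold for unique counts only.

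Mir7-1, the copy inside Hnrnpk, had 5626 and 5684 counts in replicates 1 and 2. Its level was 795 CPM (774 to 816) and 715 CPM (697 to 734), or 755 ± 56.1 CPM (SD, n = 2), and it ranked 91. Mir7-2, the intergenic miR-7a copy, had 1669 and 1658 counts, which is 236 CPM (225 to 247) and 209 CPM (199 to 219), or 222 ± 19.1 CPM (SD, n = 2), and it ranked 146. Intervals cover the counting error of reads within a library only. The reads carry no molecular identifiers, so several reads of the same molecule are counted as separate. The 3 genes did not overlap in any library, and their order was the same in both forebrains.

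**Figure D2:**
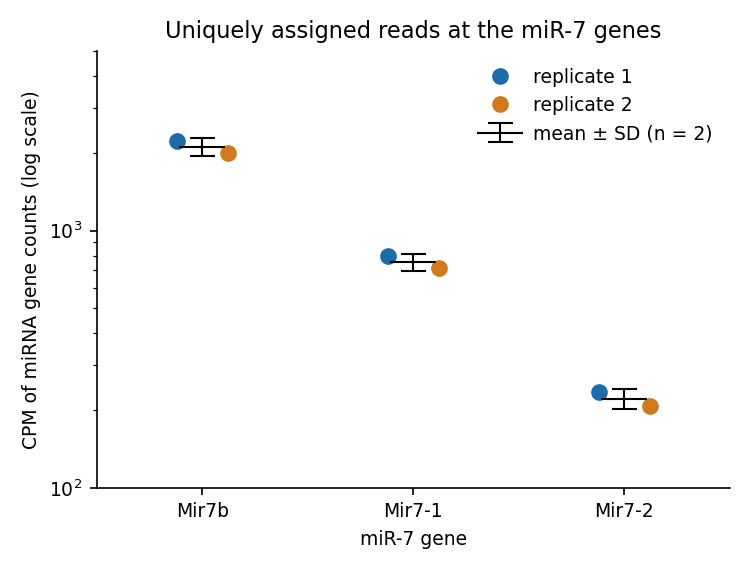
CPM of the 3 miR-7 genes (log scale) in replicate 1 (blue) and replicate 2 (orange), with the mean and SD over the 2 libraries in black. Mir7b stands at 2238 and 2002 CPM, Mir7-1 at 795 and 715 CPM and Mir7-2 at 236 and 209 CPM.

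Within a library, Mir7b had 2.82-fold the counts of Mir7-1 in replicate 1 and 2.80-fold in replicate 2. Against Mir7-2 it had 9.50-fold and 9.59-fold the counts. Mir7-1 in turn had 3.37-fold and 3.43-fold the counts of Mir7-2. The hairpins of 111 nt (Mir7b), 108 nt (Mir7-1) and 97 nt (Mir7-2) are so alike in length that scaling by it could not change the order. Per 100 nt of hairpin the levels were 2017 and 1803 CPM for Mir7b, 736 and 662 CPM for Mir7-1 and 243 and 215 CPM for Mir7-2. These ratios compare uniquely assigned reads, from which the 5p reads that match both miR-7a genes are missing, so they do not give the ratio of miR-7b to miR-7a in the tissue.

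The make-up of the family was nearly the same in both forebrains. Mir7b held 68.5% of the miR-7 counts in replicate 1 (95% Wilson interval 67.9 to 69.1) and 68.4% in replicate 2 (67.8 to 69.0). Mir7-1 held 24.3% and 24.4%, and Mir7-2 held 7.21% and 7.13%. The difference between the libraries was below sampling noise (a chi-square of 0.200 with 2 degrees of freedom, given as a description).

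Together the genes had 23143 counts in replicate 1 and 23250 in replicate 2. That is 0.327% (95% Wilson interval 0.323 to 0.331) and 0.293% (0.289 to 0.296) of the miRNA counts, or 0.310% ± 0.0242 (SD, n = 2). There were 1105 multi-mapping reads for every read counted at Mir7-1 or Mir7-2 in replicate 1 and 1185 in replicate 2, and how many of these were miR-7a-5p is not known. On the opposite strand all 3 hairpins had 0 counts in both libraries, for which a floor of 3 counts allows at most 0.424 and 0.378 CPM in replicates 1 and 2.

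Each miR-7 gene stood slightly higher in replicate 1, by nearly the same factor. The ratio of replicate 1 over replicate 2 was 1.12 for Mir7b, 1.11 for Mir7-1 and 1.13 for Mir7-2. Fisher's exact test of each gene against the remaining miRNA counts, adjusted by Benjamini-Hochberg over all 1973 genes, gave adjusted p = 6.75e-22 for Mir7b, 3.67e-07 for Mir7-1 and 0.00561 for Mir7-2. This test sets 1 library against the other and takes in no error beyond that of counting. By it 3 of 3 miR-7 genes passed, all higher in replicate 1, against 9.02% of all genes in either direction and 5.83% higher in replicate 1. Most genes of the tables have few or no counts and cannot pass, and of the 399 genes with 10 or more counts in both libraries 43.9% passed.

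With a minimum of 2-fold, 0 of 3 miR-7 genes passed, against 0.355% of all genes. At an unadjusted Fisher's exact test all 3 had p below 0.05 (2.50e-23 for Mir7b, 2.29e-08 for Mir7-1 and 4.49e-04 for Mir7-2), against 11.9% of all genes and 53.6% of the 399 genes with 10 or more counts in both libraries. With folds from TMM or median-of-ratios factors 0 of 3 passed as well, against 0.456% and 0.507% of all genes. The differences were within the usual spread of these libraries. These 399 genes, called detected, lay a median of 1.17-fold apart, and 66.4% of them lay further apart than Mir7b, 67.7% further than Mir7-1 and 62.2% further than Mir7-2. The median log2 ratio was 0.16 over the miR-7 genes and 0.09 over the detected genes.

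**Figure D3:**
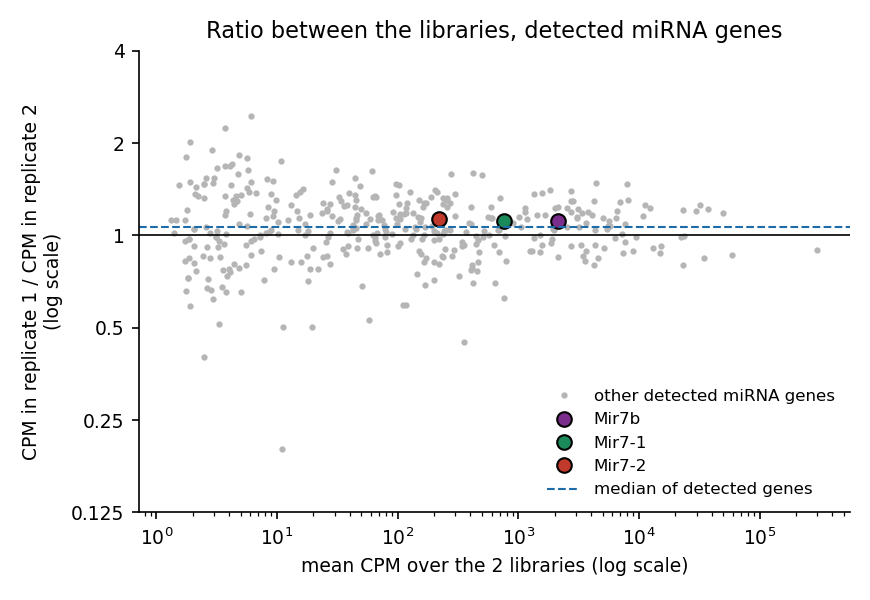
Ratio of CPM in replicate 1 over replicate 2 (log scale) against mean CPM (log scale) for the 399 detected miRNA genes, with the miR-7 genes in colour and the median of the detected genes as a dashed line. The 3 miR-7 genes, at ratios of 1.12, 1.11 and 1.13, lie just above the median of 1.06.

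The calls rested partly on the scaling. Against TMM factors all log2 ratios moved by -0.08, and against median-of-ratios factors by -0.11. Mir7b then stood at 1.06 with TMM (adjusted p = 8.01e-06, exact binomial test) and 1.04 with median-of-ratios factors (adjusted p = 0.0217). Mir7-1 lost its call, at 1.05 (adjusted p = 0.0905, exact binomial test) and 1.03 (adjusted p = 0.899), and so did Mir7-2, at 1.07 (adjusted p = 0.466) and 1.05 (adjusted p = 1). All genes together passed that test in 8.46% of cases with TMM, 4.46% higher and 4% lower in replicate 1, and in 8.62% with median-of-ratios factors, 4.05% higher and 4.56% lower. The forebrains were collected on different days, and an effect of the day cannot be told apart from one of the embryo.

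**Figure D4:**
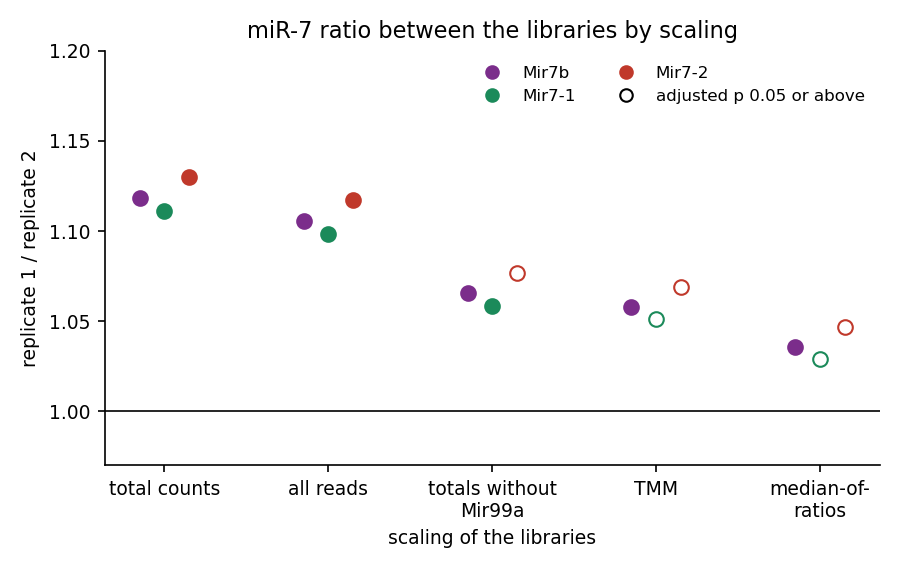
Ratio of replicate 1 over replicate 2 for each miR-7 gene under 5 ways of scaling the libraries, with open points where the adjusted p was 0.05 or above. All points lie above 1, and they come closest to it with median-of-ratios factors (1.04 for Mir7b, 1.03 for Mir7-1 and 1.05 for Mir7-2).

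Beside other miRNAs of neurons, Mir7b was among the most abundant by unique counts. These leave out reads that fit several places, so the order does not rank the mature miRNAs in the tissue. Of a list of 18 neuron-associated genes, 17 were in the tables and 16 were detected. Only Mir137 of that list, a regulator of neuronal maturation, stood above Mir7b, with 7955 CPM in replicate 1 and 7274 in replicate 2. Mir153, which targets mRNAs of synaptic vesicle proteins, had 1773 and 1526 CPM, so that Mir7b had 1.26-fold and 1.31-fold its counts.

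Of the list, 3 genes had a higher mean than Mir7-1 and 9 had a higher mean than Mir7-2. The nearest was Mir128-1, a copy of the neuron-enriched miR-128, with 582 CPM in replicate 1 and 930 in replicate 2 against 795 and 715 CPM for Mir7-1. Their order thus differed between the libraries, and Mir128-1 and Mir7-1 are not apart beyond their spread. Mir128-2 followed with 531 and 758 CPM, and Mir9-3, of the progenitor miRNA miR-9, with 634 and 556 CPM. For 14 genes of the list the symbol matched a mature form in RefSeq. In 10 of these a mature form lies at several places, so their counts are incomplete like those of Mir7-1 and Mir7-2. Mir124a-1, Mir124a-2 and Mir124a-3 had no match by symbol, so the places of their mature forms were not counted. Their means were 2.21, 1.78 and 0.464 CPM by unique counts. Reads of theirs that fit several places would be missing from these means, which therefore do not show a low level of their mature miRNA.

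Between the libraries the neuron-associated genes did not move together. Ratios of replicate 1 over replicate 2 ran between 0.626 for Mir128-1 and 1.35 for Mir124a-1 among the 16 detected genes. The upper value rests on 18 and 15 counts and did not pass (adjusted p = 1, Fisher's exact test), and the highest ratio of the list among those that passed was 1.16 for Mir153. By Fisher's exact test 4 of the 17 genes were higher in replicate 1 and 3 were higher in replicate 2. The median log2 ratio of the 17 genes was 0.01. The background was 5.83% and 3.19% of all genes, but 43.9% of the 399 detected genes in either direction. Of the list, Mir137, Mir153, Mir9-3 and Mir138-1 were higher in replicate 1, and Mir128-1, Mir128-2 and Mir132 were higher in replicate 2.

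**Figure D5:**
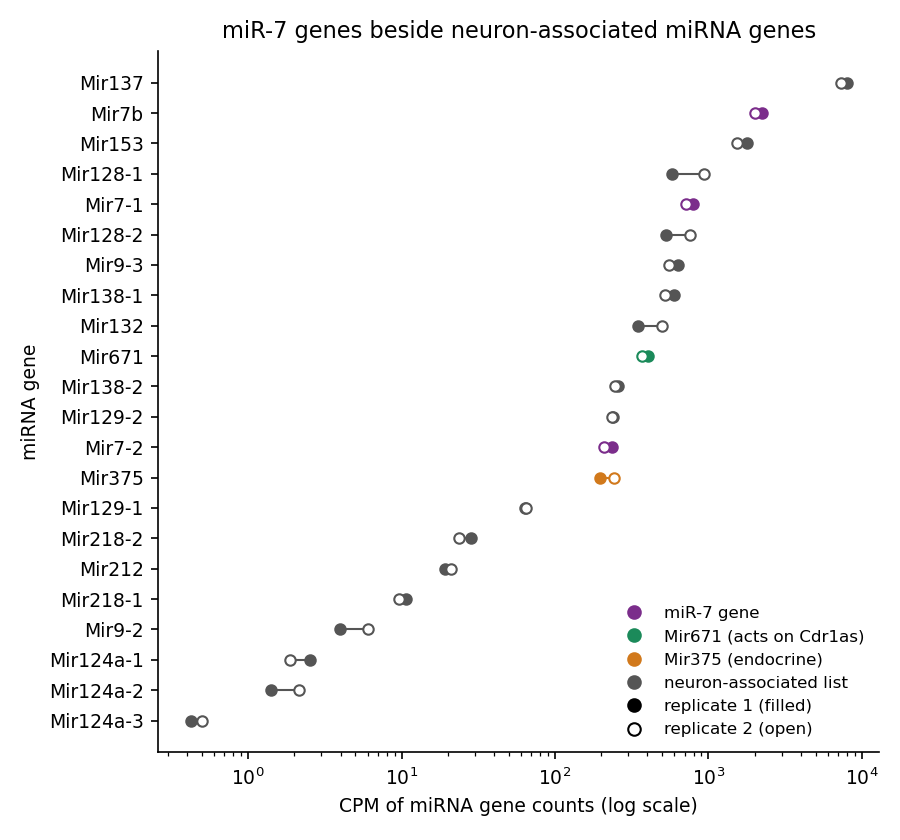
CPM (log scale) of the miR-7 genes (purple), Mir671 (green), Mir375 (orange) and 17 neuron-associated genes (grey) in replicate 1 (filled) and replicate 2 (open). Mir7b lies below Mir137 alone, 3 genes of the list have a higher mean than Mir7-1, and 9 have a higher mean than Mir7-2.

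Genes tied to miR-7 biology were also present. Mir671, whose product directs the cleavage of Cdr1as, had 2873 and 2944 counts, or 406 and 370 CPM in replicates 1 and 2. Its ratio of replicate 1 over replicate 2 was 1.10 (Fisher's exact test, adjusted p = 0.00637), and Mir7b had 5.52-fold and 5.40-fold its counts. Mir375, an endocrine miRNA that is found beside miR-7 in pancreatic islets and pituitary, had 196 and 242 CPM. It was lower in replicate 1, at a ratio of 0.808 (Fisher's exact test, adjusted p = 2.23e-08). Mir7-2 had 1.21-fold the counts of Mir375 in replicate 1 and 0.862-fold in replicate 2, so these genes are not apart beyond their spread.

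By Euclidean distance over the log2(CPM + 1) levels of the 2 libraries, the nearest genes to Mir7b were Mir1298, Mir107 and Mir379. Mir1298 had 2142 ± 317 CPM and Mir107 2021 ± 298 CPM (SD, n = 2), so neither is apart from Mir7b beyond the spread. Nearest to Mir7-1 were Mir351 (738 ± 67.0 CPM), Mir337 and Mir674. Nearest to Mir7-2 were Mir328 (231 ± 21.7 CPM), Mir210 and Mir540. With 2 libraries this likeness is one of level and says little else.

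Markers of non-neural cells had counts in both forebrains, which by itself does not show that each of the cell types was there. The endothelial Mir126a had 22103 and 22365 CPM in replicates 1 and 2. All 3 erythroid genes (Mir451a, Mir144 and Mir486) were detected, with 0.0406% of replicate 1 counts and 0.0543% of replicate 2 counts, and Mir451a had 396 and 518 CPM. Mir451a and Mir144 were lower in replicate 1 (ratios of 0.765 and 0.201, Fisher's exact test, adjusted p = 7.25e-27 and 4.36e-17), and Mir144 had 3.67 and 18.2 CPM. Mir486 had 5.65 and 6.54 CPM and did not pass (adjusted p = 1). The myeloid Mir223 had 76.0 and 86.1 CPM, and the hepatocyte Mir122 had 10.3 and 10.2 CPM, and neither passed (Fisher's exact test, adjusted p = 0.278 and 1). The part of these cells in the miR-7 levels was not tested.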

How the data were processed

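Small RNA of 2 forebrain libraries was analysed. The authors deposited whole-number read counts per miRNA gene, 1 table per library, with 3 columns of counts (either strand, gene strand, opposite strand) and 4 totals of unassigned reads. Per the file headers of the deposited README, counts came from 1 alignment file per library on mm10 with GENCODE M4. The aligner and counter are not given in those sources that were used here. The column meanings were read from the values.

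Counts on the gene strand were used. The 4 totals, 16.8% unmapped, 42.7% multi-mapping, 2.21% without a gene and 0 ambiguous reads, stayed out of library sizes and tests. Gene names came from GENCODE M21, which matched 1894 of 1973 IDs. Levels were CPM or log2(CPM + 1). The libraries form 1 group, so no test between conditions was possible, and edgeR's test was not used. The libraries were compared by Fisher's exact test per gene (two-sided, SciPy 1.17.1), Benjamini-Hochberg adjusted over all 1973 genes at 0.05. It was tried on simulated data that held counting error only, with calls at the 2-fold minimum. That trial does not cover calls at smaller ratios, such as those of the miR-7 genes. Alternative scalings used edgeR 4.0.16 (TMM) and DESeq2 1.42.0 (median-of-ratios) with an exact binomial test at the scaled library sizes. Hairpins were aligned with Biopython 1.88 and folded with ViennaRNA 2.7.2. Windows of 20 nt were searched on both strands of annotated hairpins.

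The 3 members and the gene lists were chosen with earlier results of these data known. Genes were named by rule: the miR-7 genes, up to 5 of the highest genes of each list with Mir671, Mir375, Mir451a and Mir126a, the 3 nearest genes in level to each miR-7 gene, and miRNA genes within 10 kb. Mir124a-1, Mir138-1 and Mir132 were named after their values were seen. Mir9-1 of the neuron-associated list was not analysed here.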

Additional observations from a re-analysis of the deposited data

How the results depend on the processing

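The denominator moved the level most, by construction. With all reads of the tables as the denominator the level was 811 for Mir7b, 289 for Mir7-1 and 85.0 for Mir7-2 per 1000000 reads, and the summed share 0.119%. With totals that leave out Mir99a, the most abundant gene, these were 3031, 1079 and 318 CPM and 0.443%. Without 1 library the levels ranged between 2002 and 2238 CPM for Mir7b, 715 and 795 CPM for Mir7-1 and 209 and 236 CPM for Mir7-2, the summed share between 0.293% and 0.327%, and the share of Mir7b within the family between 68.4% and 68.5%. A ratio between the libraries needs both, so it has no such value.

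The ratios of all 3 genes stayed above 1 in every scaling run. Calls were lost for Mir7-1 with TMM (1.05, adjusted p = 0.0905, exact binomial test) and median-of-ratios factors (1.03, adjusted p = 0.899). They were lost for Mir7-2 with totals without Mir99a (1.08, adjusted p = 0.328, Fisher's exact test), TMM (1.07, adjusted p = 0.466, exact binomial test) and median-of-ratios factors (1.05, adjusted p = 1). Over the scaling and filter alternatives the adjusted p ran between 8.28e-08 and 0.899 for Mir7-1 and between 0.00127 and 1 for Mir7-2, and between 1.52e-22 and 0.0217 for Mir7b. Of all genes, 7 passed Fisher's exact test with a 2-fold minimum, 17 when genes below 10 counts in both libraries were left out, which tests fewer genes, and 178 with no minimum fold. With no minimum fold the exact binomial test, chosen after seeing the data, gave 167 with TMM and 170 with median-of-ratios factors, and the genes higher and lower in replicate 1 numbered 115 and 63 with plain totals, 88 and 79 with TMM, and 80 and 90 with median-of-ratios factors. Windows of 24 nt in place of 20 nt left 1 shared window in Mir7-1 and 1 in Mir7-2. No paired analysis was possible because the libraries form 1 group.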

Other observations

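The neuron-associated list holds 4 other pairs of loci that, like Mir7-1 and Mir7-2, share 1 mature form, and in each the unique counts were split unevenly. Mir7-1 had 3.40 ± 0.0405 times the counts of Mir7-2 (SD, n = 2). For miR-129, found in neurons, Mir129-2 had 3.67 ± 0.0680 times the counts of Mir129-1, and for miR-218, known from motor neurons, Mir218-2 had 2.54 ± 0.144 times those of Mir218-1. For miR-138, known from dendrites, Mir138-1 had 2.22 ± 0.153 times those of Mir138-2, and for miR-128 the loci were closest, with Mir128-1 at 1.16 ± 0.0924 times Mir128-2. Counting intervals (95%, Wilson) of the ratio overlapped between replicates 1 and 2 for Mir7-1 over Mir7-2 (3.19 to 3.56 and 3.25 to 3.62) and did not for Mir128-1 over Mir128-2 (1.05 to 1.15 and 1.19 to 1.27). Reads that match both loci of a pair are in no gene count, so these ratios do not give the share of the mature miRNA that each locus makes. The pairs were chosen after their values were seen. Mir9-2 and Mir9-3 of the list, each with a mature form at 3 places, were not paired. Their means were 5.00 and 595 CPM, so the pairs do not show the full range of such loci.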
